A study of Mus musculus with 24 samples.

Results

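The comparison was between a pair of mouse embryonic stem cell lines that both carry a doxycycline-inducible Firre transgene, one with the endogenous Firre locus deleted (genotype Firre KO with the inducible transgene) and one with that locus intact (wild type with the inducible transgene). They are called the knockout transgenic line and the wild type transgenic line. Libraries were matched by time, at 0, 30, 90, 120 and 150 min of doxycycline, which gave 5 libraries per line and 10 of the 23 libraries with counts. The labels describe 24 samples, and the wild type transgenic library of 60 min was not analysed here, so the knockout library of 60 min had no partner and did not enter the comparison. The knockout control and the wild type control, without the transgene and given the same drug, supplied 10 more libraries at the same times. All cells were kept in 2 inhibitors, PD0325901 of MEK and CHIR99021 of GSK3, with LIF, and received 1 ng/μL doxycycline. The labels do not say how the locus was deleted, which promoter or copy number the transgene has, where it sits, or whether a line is 1 clone. Genotype and line cannot be told apart, no label describes separate cultures, and a p-value therefore reflects only how far the libraries of each line, taken at different times, scatter. The 0 min libraries also carry the doxycycline label.

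Firre is a long noncoding RNA transcribed from the X chromosome. It is known to escape X inactivation, to be retained in the nucleus through a repeated RNA element, and to bind hnRNP U. ATAC-seq reports where a transposase can enter DNA, so a peak marks open chromatin and a deleted stretch gives no counts. In such bulk libraries, fewer cells with an open site and less opening per cell cannot be told apart. Levels are given in CPM, counts divided by the TMM-scaled size of the library and brought to a common scale. Differences are given as log2 of knockout over wild type. Their standard error (SE) was derived from the edgeR test, as the absolute log2 difference over the square root of its F statistic. A peak was called at an edgeR adjusted p of 0.05 or less over 127922 tested peaks. Total counts ran from 6993739 to 8321426 in the knockout transgenic line and from 7452880 to 14977148 in the wild type transgenic line, where the deepest library was that of 90 min and the next had 8314720.

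The promoter of Firre and 3 other promoters are shown because their RefSeq start-site windows lie wholly inside peaks described here. Of 20 named peaks looked up in the RefSeq promoter table (GRCm38.p6), 4 held such a window. Each sequence is the 250 bases upstream of the annotated start, read 5′ to 3′ on the strand of the gene. Capitals mark a GC box (GGGCGG) or a CCAAT box (CCAAT) on either strand. These were found in 32.7% and 33.8% of 32851 upstream windows of the same length.
Firre, X:50635322-50635571, minus strand: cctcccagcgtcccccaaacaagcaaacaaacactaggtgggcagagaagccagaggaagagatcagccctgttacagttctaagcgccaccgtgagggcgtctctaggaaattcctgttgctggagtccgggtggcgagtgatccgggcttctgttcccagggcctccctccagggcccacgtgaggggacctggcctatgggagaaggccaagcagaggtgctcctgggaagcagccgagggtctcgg
Lrp8, 4:107822911-107823160, plus strand: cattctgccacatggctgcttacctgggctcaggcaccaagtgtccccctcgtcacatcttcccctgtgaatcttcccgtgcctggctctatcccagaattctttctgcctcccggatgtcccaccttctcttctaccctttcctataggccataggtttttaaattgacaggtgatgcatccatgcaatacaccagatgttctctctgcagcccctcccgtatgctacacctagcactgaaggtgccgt
Fggy, 4:95557257-95557506, plus strand: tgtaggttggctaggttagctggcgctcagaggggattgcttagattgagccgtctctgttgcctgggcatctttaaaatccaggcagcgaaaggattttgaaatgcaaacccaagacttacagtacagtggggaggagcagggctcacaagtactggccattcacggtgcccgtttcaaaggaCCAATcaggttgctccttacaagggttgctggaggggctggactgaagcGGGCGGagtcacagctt
Lenep, 3:89402651-89402900, minus strand: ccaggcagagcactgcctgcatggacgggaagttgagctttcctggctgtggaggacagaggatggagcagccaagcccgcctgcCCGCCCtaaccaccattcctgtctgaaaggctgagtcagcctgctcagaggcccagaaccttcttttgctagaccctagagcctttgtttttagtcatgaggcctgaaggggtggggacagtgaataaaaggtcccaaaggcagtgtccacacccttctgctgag
The Firre window had 61.6% G and C and 10 CpG, against medians of 52.4% and 6 over all windows, and held neither motif. Fggy had 1 match of each motif and Lenep had 1 GC box, while the Lrp8 window had none. A match is a description of the letters and not a binding site.

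Most peaks along Firre were lower in the knockout transgenic line, many of them without a single count. Of 20 peaks annotated to Firre, 18 were called lower in the knockout transgenic line, with no overlap between the lines. Their fitted log2 differences ran from -9.07 to -2.61. A fitted value at a peak with 0 knockout counts depends on the fit, and the -9.07 ran from -9.14 to -7.00 over the alternatives. Over all tested peaks 0.915% were called, 0.576% higher and 0.338% lower. Of these 1170 calls, 682 had lines that did not overlap. Together the 18 peaks had 3.60, 4.03, 3.10, 3.82 and 2.74 CPM at 0, 30, 90, 120 and 150 min in the knockout transgenic line. In the wild type transgenic line they had 103, 92.3, 99.4, 92.8 and 117 CPM at the same times. Every knockout library thus lay far below every wild type library, at 3.43% of the wild type mean, and the gap was already there at 0 min. The knockout control had 1.38 ± 1.03 CPM (SD, n = 5) and the wild type control 87.7 ± 7.22 CPM.

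Of the 20 peaks, 12 had 0 counts in all 5 knockout transgenic libraries. At a floor of 3 counts over the group (0.0789 CPM) these were at least 29.5-fold to at least 107-fold lower than in the wild type transgenic line. The largest of them lies in intron 8 of 19 (X:50602462-50603254), where the wild type transgenic line had 9.71, 7.46, 8.15, 7.20 and 9.70 CPM over the 5 times. Another 3 peaks held 1 count each, and 3 held more. Of these last, the annotated promoter peak (X:50634917-50635918), around the sequence printed above, had 2.31, 2.82, 2.32, 2.55 and 1.74 CPM in the knockout transgenic line and 13.03, 13.7, 14.2, 14.8 and 16.2 CPM in the wild type transgenic line. All 5 knockout values were above 0 and below the lowest wild type value (log2 -2.61 ± 0.15 SE, edgeR adjusted p = 2.22e-29). The knockout line without the transgene had 0.886 ± 0.648 CPM there (SD, n = 5). Peaks in intron 5 of 19 (X:50611777-50612817) and at an annotated termination site (X:50614501-50615470) also kept counts, at 0.557 ± 0.196 and 0.474 ± 0.176 CPM, against 7.71 ± 2.95 and 9.62 ± 1.33 CPM.

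The exonic peak of Firre was the exception within the gene. It lies in exon 18 of 20 (X:50569280-50570236) and had 12.7, 21.7, 17.9, 15.3 and 15.8 CPM in the knockout transgenic line. The wild type transgenic line had 13.03, 36.8, 31.2, 25.6 and 22.2 CPM. At 0 min the lines were level, and at each of the 4 later times the knockout line was lower, but the ranges overlapped and the peak was not called (log2 -0.64 ± 0.20 SE, edgeR adjusted p = 0.167). In the control lines the order was the opposite, with 7.11 ± 2.53 CPM (SD, n = 5) in the knockout and 2.14 ± 0.496 CPM in the wild type, and that difference was called (log2 1.82, edgeR adjusted p = 0.0171). The genotype difference therefore differed between the transgenic and the control pair by -2.46 ± 0.46 (edgeR adjusted p = 0.0472). From 0 min to the later times the line difference moved by -0.69 ± 0.37 (log2; edgeR adjusted p = 0.849). Counts cannot tell the transgene from the endogenous locus in this peak. The knockout control, without the transgene and with the locus deleted, also held counts there. The source of those counts was not tested. The intergenic peak annotated to Firre (X:50657805-50658379) had 2.02 ± 0.281 and 2.19 ± 0.655 CPM (log2 -0.11 ± 0.24, edgeR adjusted p = 0.891).

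**Figure D1:**
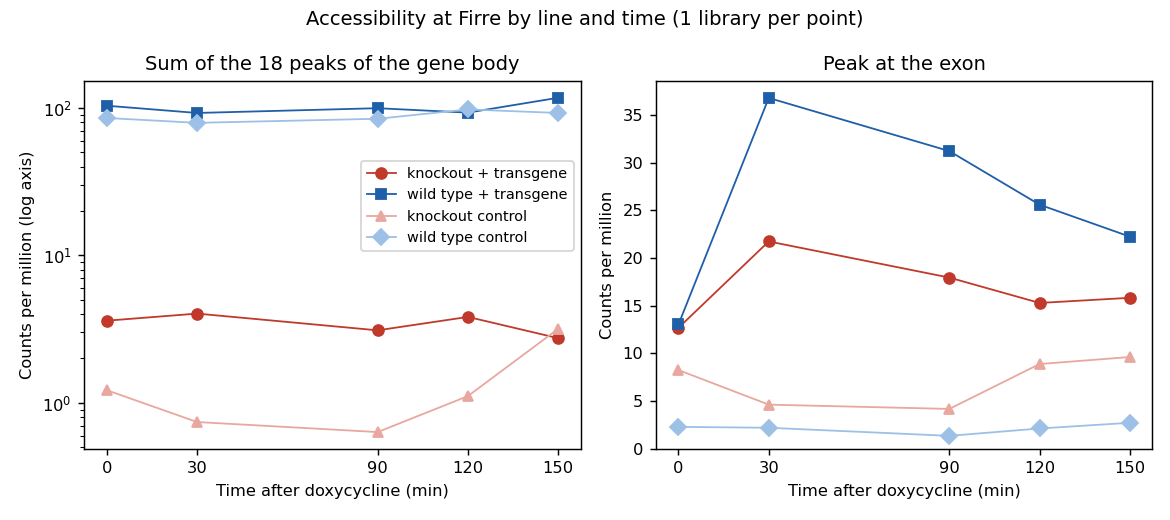
CPM (y) against minutes of doxycycline (x) for the 4 lines, 1 library per point, with the sum of 18 Firre peaks on a log axis at the left and the exonic peak on a linear axis at the right. The transgenic lines lie at 2.74 to 4.03 and 92.3 to 117 CPM in the sum, and overlap in the exonic peak.

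Outside the annotated gene, 10 peaks within 500000 bp were tested and 2 were called, where 0.915% of all tested peaks were. Both lie on the 3′ side, near Gm14620, and both were lower in the knockout transgenic line. The nearer one (X:50549907-50550663), 12457 bp from the gene, had 1.42 ± 0.719 CPM against 3.08 ± 0.673 CPM (SD, n = 5 each; log2 -1.14 ± 0.24 SE, edgeR adjusted p = 0.00507), and the lines overlapped, since the knockout library of 0 min had 2.45 CPM and the lowest wild type library 2.40 CPM. That call ended without the knockout transgenic library of 150 min, and without the wild type transgenic libraries of 90 and 150 min. The farther one (X:50537249-50537728), 25392 bp away, had 0.215 ± 0.134 against 1.38 ± 0.357 CPM (log2 -2.57 ± 0.49, edgeR adjusted p = 0.000934). In the control pair the same peaks differed by -1.58 and -2.54. The nearer peak was named after its values were seen. The other 8 flanking peaks, at Olfr1324, Stk26, Frmd7, Rap2c and Gm5387, had log2 differences between -0.32 and 0.42 and were not called.

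Beyond Firre, 1152 peaks were called, 737 higher and 415 lower in the knockout transgenic line. Their differences were modest, with a median absolute log2 difference of 0.52. The counts and medians by position that follow include the Firre peaks. Promoter peaks, labelled promoter or within 1000 bp of a start site, were called higher at 152 of 21908 (0.694%) and lower at 42 (0.192%). Other peaks were called higher at 585 (0.552%) and lower at 391 (0.369%) of 106014. The median log2 difference was 0.038 for promoter peaks and -0.019 for other peaks, but that of promoter peaks was -0.0040 under total count scaling and -0.012 under loess offsets. Promoter peaks took a share of all counts of 41.6 ± 0.522% (SD, n = 5) in the knockout and 40.8 ± 2.06% in the wild type transgenic line. It was higher in the knockout at 4 of 5 times, with an exact two-sided permutation p = 0.4375 where the smallest possible is 0.0625. The wild type library of 150 min had the highest share of the 10, at 44.3%, and its part in the calls was not tested beyond leaving it out, which gave 3786 calls.

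The number of calls moved with the libraries and the tool. Leaving out 1 library gave 328 calls without the knockout transgenic 150 min, 355 without the wild type transgenic 120 min, 401 and 415 without its 90 and 30 min, 463, 472 and 566 without the knockout 30, 90 and 120 min, and 1769 without the knockout 0 min. limma-voom called 689 peaks, and DESeq2 called 288 with a local dispersion trend, the setting chosen first, and 149 with the parametric trend, run after the first count was seen. DESeq2 gave no adjusted p for 84324 and 81844 peaks. Higher calls were 737 of 1170 in the TMM fit and 532 of 1121 under total counts.

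Among the promoters higher in the knockout transgenic line by the largest amounts were those of a protease, a carbohydrate kinase and a lipoprotein receptor gene. The promoter of Ctsw (19:5468221-5469140), which encodes cathepsin W, had 8.94, 10.9, 11.4, 10.1 and 11.2 CPM in the knockout and 6.52, 5.24, 7.09, 6.66 and 7.37 CPM in the wild type transgenic line. Every knockout library was above every wild type library (log2 0.66 ± 0.12 SE, edgeR adjusted p = 0.000407). This peak is a promoter by its label, with an annotated distance of -2355 bp to the start site. Ctsw was also called higher in the knockout control (0.39, edgeR adjusted p = 0.0358). The difference between the pairs was 0.27 ± 0.17 and was not called (edgeR adjusted p = 0.606). The promoter of Fggy (4:95556950-95558062), which encodes a carbohydrate kinase, had 11.7, 14.2, 16.0, 16.3 and 15.1 against 9.57, 10.7, 9.87, 9.20 and 10.7 CPM. The lines did not overlap (0.56 ± 0.11, edgeR adjusted p = 0.00131). The peak shared by Lrp8, which encodes a receptor for reelin and apolipoprotein E, and its antisense neighbour Lrp8os2 (4:107822673-107823484) had 7.06 ± 0.992 against 4.76 ± 0.520 CPM (SD, n = 5; 0.58 ± 0.14 SE, edgeR adjusted p = 0.0191).

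Further named promoters on this side were Adgrb3, an adhesion G protein-coupled receptor gene (log2 0.73 ± 0.19), Trav13d-4, a T cell receptor segment (0.65 ± 0.17), Vmn2r-ps104, a vomeronasal receptor pseudogene (0.64 ± 0.15), and Rps6ka2, a ribosomal S6 kinase gene (0.56 ± 0.14). Their edgeR adjusted p ran from 0.0146 to 0.0408, and their mean levels from 2.40 to 6.95 CPM. The lines overlapped at Vmn2r-ps104 and Rps6ka2 and not at Adgrb3 and Trav13d-4. The Rps6ka2 peak is a promoter by its label, with an annotated distance of 56791 bp to the start site. The calls at Ctsw and Fggy held in all 26 alternatives that gave a value, while those of Lrp8os2 and these 4 each ended in 6 or more alternatives, including leaving out the knockout transgenic library of 150 min.

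Of the 8 promoters lower by the largest log2 differences, Scp2 had the highest level. Some are promoters by label only, with annotated distances to the start site of -26976 bp at Scp2 and -3503 bp at Zscan18. Scp2 encodes a sterol carrier protein of peroxisomes. Its promoter peak (4:108144709-108146251) had 8.79, 11.8, 9.94, 8.92 and 9.60 CPM in the knockout and 14.9, 15.2, 17.2, 14.8 and 16.9 CPM in the wild type transgenic line. The lines did not overlap (log2 -0.69 ± 0.11 SE, edgeR adjusted p = 8.01e-06). The control lines had 9.61 ± 1.89 and 10.6 ± 0.994 CPM (SD, n = 5), and the mean of the wild type transgenic line was above those of the other 3 lines. The difference between the pairs was -0.54 ± 0.16 (edgeR adjusted p = 0.113). The Scp2 call held in all alternatives that gave a value.

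The other 7 had means of 1.13 to 5.56 CPM and each lost its call in 6 or more alternatives. They were Gtf3c1, a subunit gene of transcription factor IIIC (log2 -1.12 ± 0.28, edgeR adjusted p = 0.0255), Lenep, a lens epithelial gene whose peak is annotated at the end of Flad1 (-0.95 ± 0.24), and Zscan18, a zinc finger gene (-0.95 ± 0.23). Next were Hhipl2, a relative of the hedgehog-interacting protein (-0.90 ± 0.22), Sec16b, a gene of endoplasmic reticulum export (-0.83 ± 0.23), and Rusc2 (-0.70 ± 0.17). A peak named for Uvssa, a gene of transcription-coupled repair, is annotated as the promoter of Maea (-0.73 ± 0.19). Gtf3c1 was also called lower in the knockout control (-0.81, edgeR adjusted p = 0.0391).

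**Figure D2:**
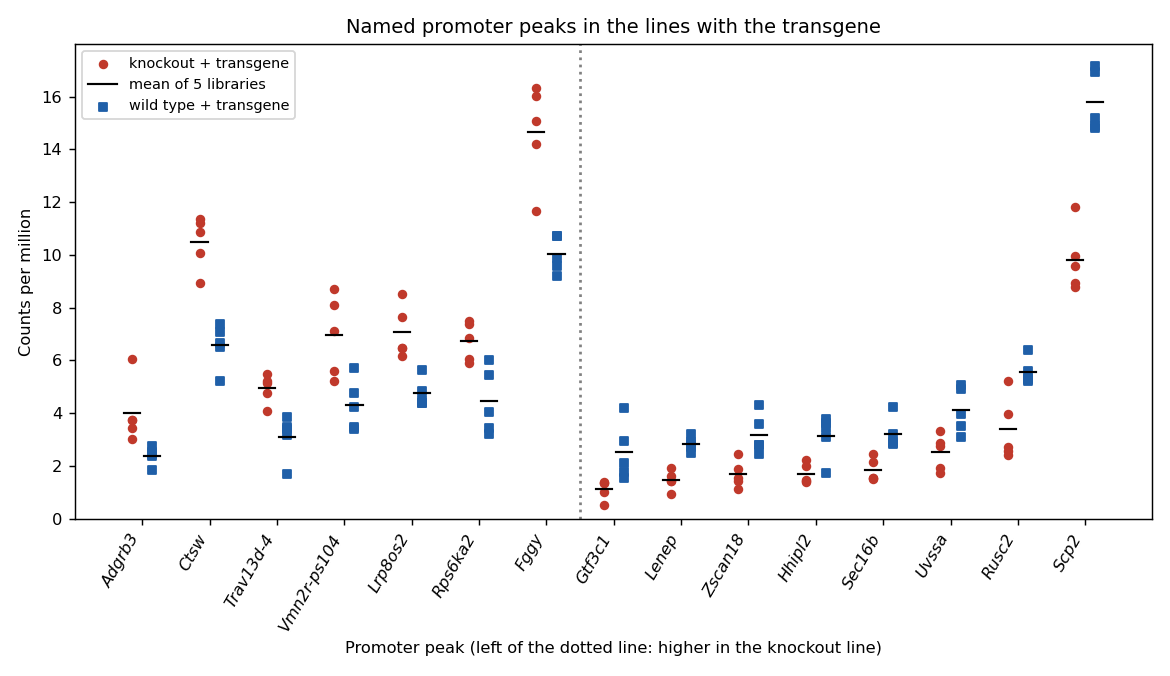
CPM (y) of named promoter peaks (x) in the transgenic lines, with 5 libraries per line as points and their mean as a bar. The lines are separated at Ctsw, Fggy and Scp2 and overlap at Vmn2r-ps104, Rps6ka2, Hhipl2 and Uvssa.

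Peaks on chromosome 11 were more often higher than lower in the knockout transgenic line. The chromosome held 260 calls among 9775 tested peaks (2.66%, against 0.915% of all tested peaks), 255 higher and 5 lower. Its median log2 difference was 0.094, and over the 5 times it was 0.139, 0.033, 0.071, 0.086 and 0.111. All 5 were above 0, and all 13 bins of 10 Mb along the chromosome had positive medians, from 0.017 to 0.124. The other 18 autosomes had medians from -0.027 to 0.0052. Under total counts the chromosome 11 median was 0.052, and it exceeded the median of the other chromosomes by 0.106 under TMM and 0.107 under total counts. In the control pair it was 0.135. Against the mean of the wild type control, chromosome 11 stood at 0.071 ± 0.030 (SD, n = 5) in the knockout transgenic line, -0.014 ± 0.026 in the wild type transgenic line and 0.132 ± 0.046 in the knockout control. Among its promoter peaks 71 of 1655 were called higher (4.29%, against 0.694% of all promoter peaks) and 0 lower.

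The X chromosome had a median of 0.079, but its values at single times ran from -0.067 at 0 min to 0.188 at 30 min. It held 6 higher (0.284%) and 20 lower calls (0.947%) among 2112 peaks, against 0.576% and 0.338% of all tested peaks. The 20 lower calls fell between 50537249 and 50635918, in Firre and its 3′ flank. With chromosome 11 set aside and Firre included, 482 of 118147 tested peaks were called higher (0.408%) and 428 lower (0.362%).

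**Figure D3:**
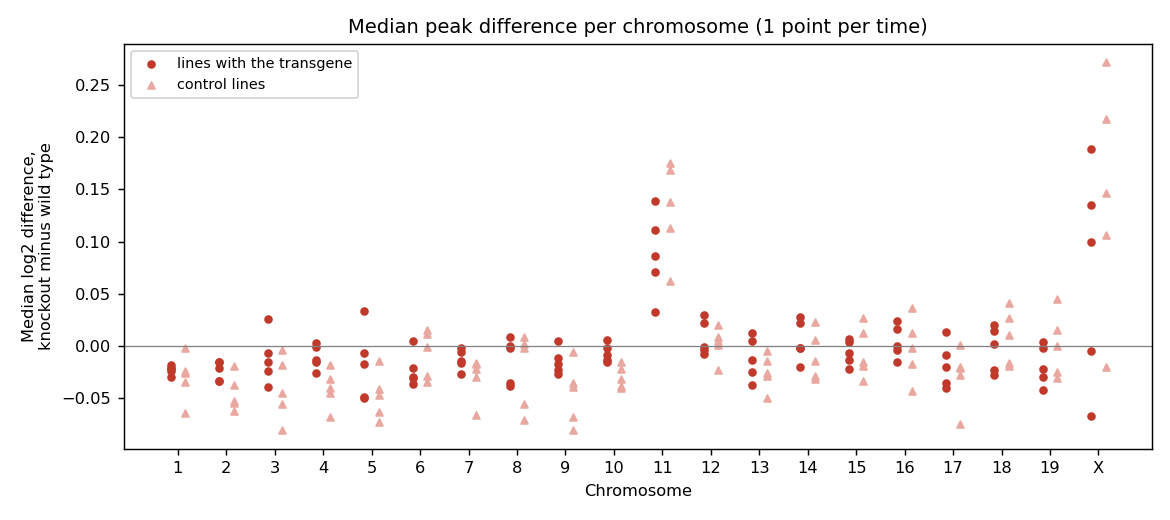
Median log2 difference of knockout minus wild type (y) for each chromosome (x), 1 point per time, in the transgenic pair and in the control pair. Chromosome 11 lies above 0 at all 5 times in both pairs, and X spreads from -0.067 to 0.188 in the transgenic pair.

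The transgenic pair was then set beside the control pair, which shares no library with it. The control lines differed at 9423 peaks (7.37%), 6720 of them higher in the knockout (5.25%). Of the 1152 calls between transgenic lines outside Firre, 960 (83.3%) had the same sign in the control pair, where 61.1% of all tested peaks outside Firre did. Of the 1152, 285 (24.7%) were also called in the control pair with the same sign and 7 with the opposite sign. These 285 were 3.03% of the peaks called between control lines outside Firre. On chromosome 11 the same sign was seen at 246 of 260 calls. Over the 1152 peaks Pearson's r of the log2 differences was 0.60, a description across peaks that share libraries within each pair. It pools higher and lower calls. Within the 737 higher calls r was -0.17 and within the 415 lower calls 0.34. Over all tested peaks outside Firre it was 0.27.

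**Figure D4:**
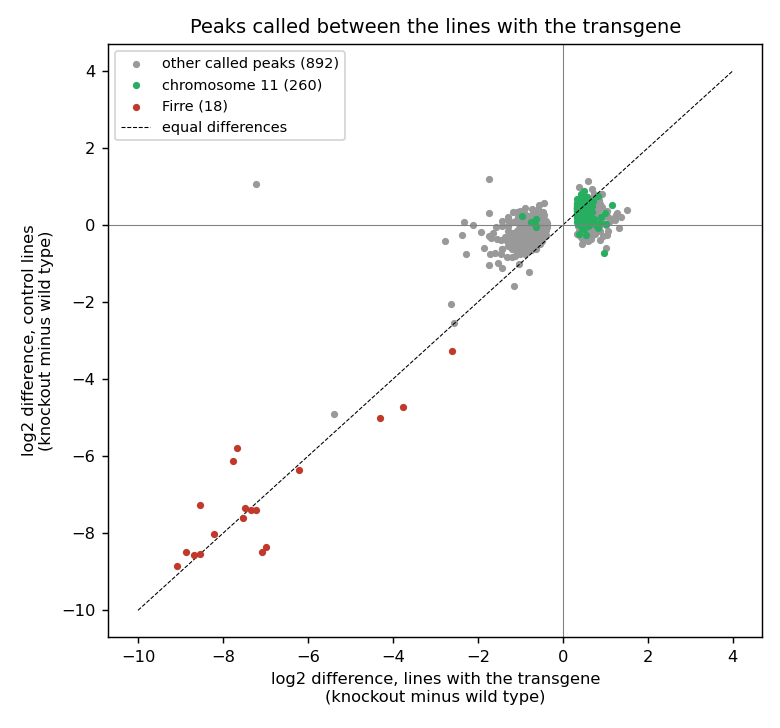
Log2 difference of knockout minus wild type in the transgenic pair (x) and in the control pair (y) for the 1170 called peaks. The 18 Firre peaks lie near the line of equal differences, and 1 peak, at mt-Tr, lies at -7.21 in the transgenic pair and 1.07 in the control pair.

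The genotype difference itself differed between the pairs at 334 peaks (0.261%), 124 with a positive and 210 with a negative difference. The split was 302 and 327 under total counts, 323 and 340 under loess offsets, and 1 and 574 by DESeq2 with the local trend. Of these, 63 were also called between the transgenic lines outside Firre. At 30 of the 63 the mean of the wild type transgenic line alone lay outside the range of the 10 control libraries, at 17 that of the knockout transgenic line alone, at 1 both, and at 15 neither. Over the 1152 calls outside Firre these counts were 222, 260, 23 and 647. The 63 were selected for a transgenic difference unlike that of the control pair, so their split is only a description. Some of them lie together in 1 stretch of chromosome 13, where 10 peaks were called for this difference. The count of 334 rested on single libraries. It was 34 when each library's promoter share entered the fit and 80 when the 30 and 90 min libraries of the knockout control were left out. Leaving out 1 library gave 95 (wild type control 150 min) to 2586 (knockout control 150 min), and it stayed within 1.5 times only without the knockout transgenic 0 or 90 min, the wild type control 30 min or the wild type transgenic 120 min.

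On the autosomes and X, runs with at least 5 of 10 successive tested peaks called in 1 direction were found at Firre and in 1 stretch of chromosome 13. Between 66263176 and 66488580, a stretch with Vmn2r-ps104, 2410141K09Rik and predicted genes, 18 of 25 tested peaks were called higher in the knockout transgenic line and 0 lower. These bounds were chosen after the values were seen. Over all tested peaks 0.576% were called higher and 0.338% lower. Summed over the 25 peaks, the wild type transgenic line had 83.1, 80.9, 93.5, 82.8 and 94.9 CPM over the 5 times. The knockout transgenic line had 142, 182, 185, 175 and 183 CPM. The knockout control had 171 ± 19.03 and the wild type control 151 ± 5.35 CPM (SD, n = 5), so only the wild type transgenic line was low. The median log2 difference was 0.92, against 0.114 in the control pair. In the 1 Mb on either side, 2 of 101 peaks were called (1.98%, against 0.915% of all tested peaks) and the median was 0.031.

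The peak at Gm18260 (13:66311475-66312505) had 17.8 ± 2.82 against 7.22 ± 1.29 CPM (SD, n = 5; log2 1.29 ± 0.12 SE, edgeR adjusted p = 6.73e-15), and its difference from the control pair was 1.05 ± 0.16 (edgeR adjusted p = 7.65e-05). The promoter of 2410141K09Rik (13:66440864-66441695), named after its values were seen, had 12.1 ± 2.29 against 5.19 ± 0.897 CPM (1.23 ± 0.13, edgeR adjusted p = 8.64e-12). Further named peaks of this stretch were at Gm46426 (1.25 ± 0.12), C330022B21Rik (1.31 ± 0.22), Gm48243 (1.28 ± 0.12), Gm48322 (1.05 ± 0.13) and a second one at Gm18260 (1.52 ± 0.36). Most of these peaks are annotated to predicted processed pseudogenes, where reads can be split between near-identical copies, so their levels are uncertain. Outside this stretch the remaining named non-promoter peak on the higher side was an intergenic one near Fstl4 on chromosome 11 (1.16 ± 0.24, edgeR adjusted p = 0.00453), a call that ended without the knockout transgenic library of 150 min.

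A mitochondrial peak marked the wild type transgenic line. At mt-Tr, the mitochondrial arginine tRNA gene (M:9384-9894), that line had 1281, 1377, 1182, 1629 and 1827 CPM over the 5 times. The knockout transgenic line had 13.1, 8.19, 7.88, 11.1 and 8.97 CPM, the knockout control 15.3 ± 3.50 and the wild type control 7.24 ± 0.985 CPM (SD, n = 5). The log2 difference was -7.21 ± 0.17 SE (edgeR adjusted p = 8.81e-66) and differed from the control pair by -8.28 ± 0.33 (edgeR adjusted p = 5.96e-42). The lines were apart at 0 min as well as at each later time. The peak has a mitochondrial name and was named after its values were seen. The other mitochondrial peaks did not move with it. The one at mt-Ti had 29402 CPM in the knockout and 27323 CPM in the wild type transgenic line (edgeR adjusted p = 0.929), and the one at mt-Nd6 had 24494 and 22710 CPM (edgeR adjusted p = 0.922).

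Unplaced contigs gave a further group, chosen after the values were seen. Of 241 tested peaks on unplaced or alternate contigs, 17 were called lower (7.05%) and 1 higher (0.415%). Over all tested peaks 0.338% were called lower and 0.576% higher. The 7 tested peaks of JH792827.1 were all called lower in the knockout transgenic line. Summed, they had 8.07 ± 2.78 CPM in the knockout transgenic line, 35.8 ± 6.75 CPM in the wild type transgenic line, 8.45 ± 2.45 CPM in the knockout control and 11.5 ± 1.25 CPM in the wild type control (SD, n = 5). On GL456370.1 the pattern followed the genotype. Its peak at 7885-8965 had 0.180 ± 0.144 and 0.179 ± 0.210 CPM in the knockout transgenic and knockout control lines, and 8.28 ± 1.03 and 6.41 ± 1.40 CPM in the wild type transgenic and wild type control lines (log2 -5.38 ± 0.30 SE, edgeR adjusted p = 4.28e-31).

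**Figure D5:**
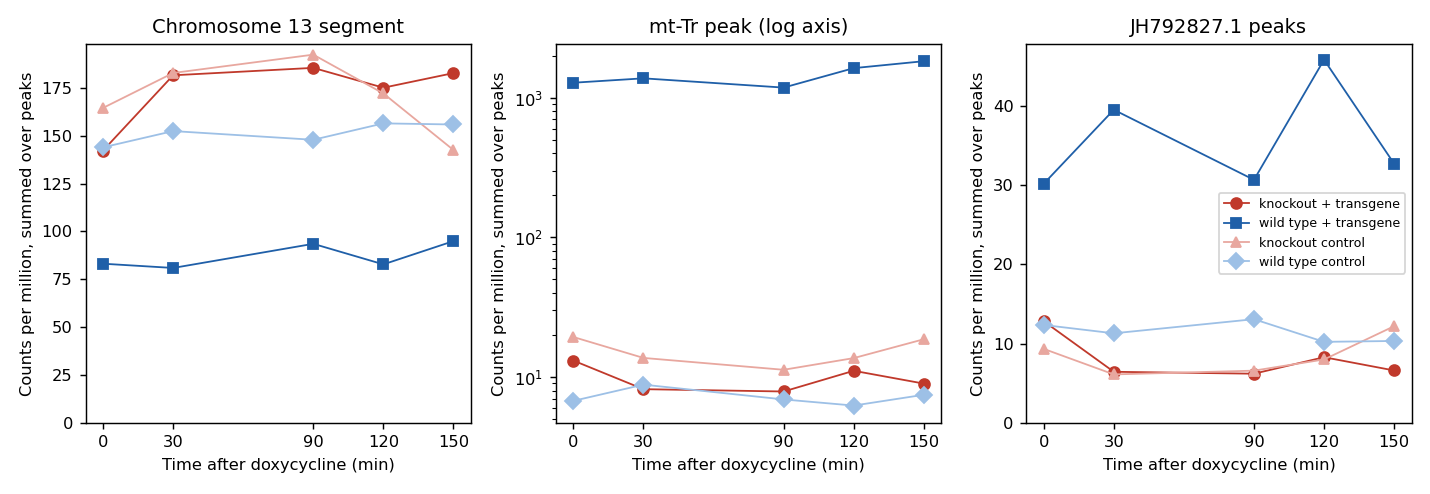
CPM (y) against minutes of doxycycline (x) in the 4 lines for the 25 peaks of the chromosome 13 stretch, the mt-Tr peak (log axis) and the 7 peaks of JH792827.1, 1 library per point. The wild type transgenic line lies apart from the other 3 at all 5 times in each panel.

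Other named non-promoter peaks lower in the knockout transgenic line were weak. The intergenic peak near Gm41031 (13:97844874-97845526) had 0.722 ± 0.386 against 3.10 ± 0.695 CPM (log2 -2.11 ± 0.30, edgeR adjusted p = 4.14e-07), and the control lines lay at 0.932 and 0.962 CPM. The peak near n-TSaga9 (4:10864924-10865477), a transfer RNA gene, had 0.712 ± 0.305 against 2.40 ± 0.570 CPM (-1.74 ± 0.31, edgeR adjusted p = 0.000270), while in the control pair the knockout had the higher level (log2 1.18, edgeR adjusted p = 0.0116). The remaining 3, near Gm24975 (-1.93 ± 0.42) and 4921524L21Rik (-1.73 ± 0.40) and in intron 6 of 16 of Plekha5 (-1.73 ± 0.40), each lost the call in 2 or more alternatives.

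Gene lists for the cell state were measured at promoter peaks. Over all promoter peaks 0.694% were called higher and 0.192% lower, so that lists of this size would hold about 0 calls at the same share, and counts of 0 say nothing particular about them. Naive pluripotency genes, the markers of these cells, had peaks at 21 of 22 genes. Of 25 peaks 0 were called, and the median was 0.100, against 0.038 over all promoter peaks. The promoter of Pou5f1 had 25.3 against 22.2 CPM (log2 0.20 ± 0.09, edgeR adjusted p = 0.314), and that of Sox2 had 52.8 against 52.4 CPM. Summed over the list, the knockout line had 786 to 951 CPM and the wild type line 755 to 951 CPM. Formative and primed genes had 0 of 23 peaks called (median -0.0043), germ layer and trophoblast markers 0 of 23 (0.028), and fibroblast markers, for feeder cells, 0 of 17 (0.035). The fibroblast sums ran from 200.03 to 224 CPM in the knockout and from 200.14 to 229 CPM in the wild type. Promoters of silent genes can be open, so these levels are not expression. For the 2-cell-like genes, 0 of 10 had a promoter peak that could be tested.

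Of the pathway lists, heat shock genes had 1 of 11 peaks called higher and p53 targets 1 of 13, where 0.694% of all promoter peaks were, and a single call is too few to describe a list. The first was at Bag3, a co-chaperone gene (7:128523228-128524468), with 27.8 ± 2.99 against 21.8 ± 1.72 CPM (SD, n = 5; log2 0.36 ± 0.09 SE, edgeR adjusted p = 0.0300). The second was at Ccng1, the cyclin G1 gene on chromosome 11 (11:40754628-40756499), with 45.2 ± 3.73 against 34.1 ± 3.27 CPM (0.41 ± 0.09, edgeR adjusted p = 0.0106). Ccng1 was also higher in the knockout control, by 0.54. The Bag3 call ended in 13 alternatives and that of Ccng1 in 4, among them leaving out the knockout transgenic library of 150 min for both. The list medians were 0.070 and 0.109.

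No peak was called in either direction for the other lists. LIF and STAT3 genes had 22 peaks (median 0.101), Wnt pathway targets 11 (0.098, or 0.017 without the 6 on chromosome 11), FGF and ERK targets 15 (0.012), imprinted genes 21 (0.079) and Polycomb genes 28 (0.037, or -0.011 without the 7 on chromosome 11). Genes of Firre partners and chromosome structure had 17 peaks with a median of 0.042. Their single peaks ran from -0.70 to 0.38, among them Ctcf (0.02 ± 0.09). Genes in nuclear contact with Firre had 5 peaks at 2 of 5 genes (-0.0045), and the X inactivation region had 6 peaks at 5 of 8 genes (0.036). In the control pair, 10 of the 28 Polycomb peaks (with 1 lower) and 9 of the 21 imprinted gene peaks were called higher in the knockout. So were 5 of 11 Wnt, 4 of 11 heat shock, 6 of 22 LIF and STAT3 and 5 of 17 Firre partner peaks. FGF and ERK targets held 1 of 15, and the X inactivation region 0 of 6. Over all tested peaks 5.25% were, but that share mixes promoters with other peaks. The share among promoter peaks alone was not counted, so these counts do not show that any list stands out. In the control pair the median was 0.104 for promoter peaks and -0.057 for other peaks. Whether these lists differ between the pairs was tested peak by peak, and 0 of their peaks were called for that difference.

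The line difference was not seen to change after doxycycline at this precision. No peak was called for the change from 0 min to the later times (0%), with 7737 peaks at an unadjusted p under 0.05, and none for a difference in slope per hour (0%), with 5138. DESeq2 and limma-voom also called 0 in both tests. On the log2 scale a typical peak had an SE of 0.449 for the change, 0.193 per hour for the slope and 0.172 for the line difference (medians). The change rests on 1 library per line at 0 min. With the 10 transgenic libraries alone, 12 peaks were called for the change, and leaving out the 30 and 90 min libraries of the knockout control gave 1, on the contig GL456211.1 (-1.47 ± 0.28, edgeR adjusted p = 0.0364, against 0.834 with them). The smallest p for a change belonged to a peak in an intron of Slit2, an axon guidance gene (5:48062995-48063676, -4.65 ± 0.92, edgeR adjusted p = 0.224), and to an intergenic one near Tnip3 (6:65510161-65510891, 3.37 ± 0.72, edgeR adjusted p = 0.250). For the slope it was a peak in exon 8 of Hcn4, a pacemaker channel gene (9:58858836-58860276, -0.55 ± 0.13 per hour), and one near Gm29794 (10:55929233-55929623, 1.52 ± 0.36), both with an edgeR adjusted p of 1.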

How the data were processed

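Raw counts per consensus peak and library were deposited by the authors for 23 libraries, and positions and annotations of 145143 peaks with them. The submitters' processing notes name mm10, MACS2 2.2.7.1 and featureCounts. For the aligner, duplicate handling, transposase shift and whether starts count from 0, the entry is: not given in the sources used here. Libraries were prepared by Omni-ATAC from 25000 cells, per the labels' protocols. The members, gene lists and named-peak rule were chosen with earlier results of these data known.

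The 20 libraries of 4 lines at 5 times were fitted in edgeR 4.0.16 (glmQLFit, robust; R 4.3.3) with line and time, TMM scaling and filterByExpr at a minimum of 10 counts, leaving 12 residual degrees of freedom, with Benjamini-Hochberg adjustment over 127922 peaks. Contrasts were the transgenic pair, the control pair, their difference, and line by time terms. Fits were tested on simulated data. Named were all Firre peaks, and per direction the 8 promoter and 6 other called peaks with the largest difference, of the same sign at all 5 times and at least 1 CPM, with called list genes and the smallest p of the other tests. Promoters with predicted, clone, microRNA, small nucleolar RNA or mitochondrial names were skipped, as were contigs. A promoter that the rule names is not reported here. Peaks outside this rule are said to be chosen after their values were seen. List genes were matched by nearest gene, and, after a first look left some unmatched, by promoter annotation and RefSeq synonyms. Medians per time used log2(CPM + 0.5). Alternatives used DESeq2 1.42.0 and limma 3.58.1. The floor for a library with no count is 0.390 CPM (3 counts, at the median depth), which covers counting error only.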

Additional observations from a re-analysis of the deposited data

Results flagged for a closer look

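Values in groups of 5 libraries were examined for 1 library far from the rest, and 17 of 130 groups held one by Dixon's test. Many of these groups are peaks named for their values in these data, and some share peaks. The usual rate of about 1 in 20 therefore does not apply, and the count is only a description. The total count of the wild type transgenic library of 90 min, 1.49771e+07, was the highest, with the next at 8314720. In the knockout transgenic line at 0 min, the chromosome 13 stretch was low at 142 CPM (the others 175 to 185), the peak at Gm48243 low at 10.7 CPM, the peak near Tnip3 low at 0.432 CPM, and the peaks in Slit2 (named for Gm43426), Plekha5 and at JH792827.1 (start 120) high at 3.60, 0.865 and 4.32 CPM. In that line Adgrb3 was high at 30 min (6.04 CPM) and Bag3 at 90 min (33.1 CPM), while 3 Firre peaks held counts in a single library each, at 0.127, 0.129 and 0.134 CPM. In the wild type transgenic line 3 Firre peaks were high at 150 min (3.62, 12.7 and 6.34 CPM), Gm48243 was high at 90 min (7.42 CPM) and Sec16b at 0 min (4.26 CPM).

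The genotype difference differed between the transgenic and the control pair, by edgeR's test of that difference, at 12 named peaks. These were the exonic Firre peak (-2.46), mt-Tr (-8.28), the peaks near n-TSaga9 (-2.92) and Gm41031 (-2.11), both JH792827.1 peaks (-2.09 and -1.51), and on chromosome 13 those at C330022B21Rik (1.40), 2410141K09Rik (1.09), Gm18260 (1.05), Gm46426 (1.00), Gm48243 (0.98) and Gm48322 (0.83).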

How the results depend on the processing

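The labels carry no replicate numbers, so libraries were matched by time, which was a term of the fit, and without that term 796 peaks were called between the transgenic lines. Calls between the transgenic lines (1170) were 288 by DESeq2 with a local trend, 149 with the parametric trend (added after the local count was seen), 689 by limma-voom and 676 when the promoter share entered the fit. Leaving out 1 library gave 328 to 3786. Leaving out the wild type transgenic libraries of 90 and 150 min, added after the data were seen, gave 1324. Calls for the difference between pairs (334) were 629 under total counts, 663 under loess offsets, 575 and 587 by DESeq2 with the local and parametric trends, with no adjusted p for 121525 peaks in each, 80 when the 30 and 90 min libraries of the knockout control were left out, 34 when the promoter share entered the fit, and 95 to 2586 leaving out 1 library. Calls for the change after doxycycline (0) were 12 with the 10 transgenic libraries and 1 without those 2 control libraries, and 0 leaving out 1 library. Slope calls stayed at 0 in the alternatives run, 0 leaving out 1 library. The chromosome 11 median (0.094) was 0.052 under total counts and 0.079 to 0.106 leaving out 1 library. The promoter median (0.038) ran from 0.023 to 0.074 leaving out 1 library, and was -0.0040 under total counts, -0.012 under loess offsets, 0.0021 at a minimum of 50 counts and 0.0092 when the promoter share entered the fit. The promoter share difference (0.842 percentage points) ran from 0.420 to 1.69 leaving out 1 time. The cause of these changes was not tested. Of 55 called named peaks, 34 kept the call in every alternative that gave a value, and 0 reversed. The 18 called Firre peaks are all among the 34. DESeq2 gave a value for only 12 of the 55 (14 with the parametric trend), and the minimum of 50 counts for 18. The control pair gave 9670 calls in its own 10 libraries, against 9423.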

Other observations

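Further called promoters, chosen after their values were seen, add to the account of the transgenic lines. They are not among the 55 called named peaks that were followed through the alternatives. Lower in the knockout transgenic line were the promoters of Fgfbp3, a fibroblast growth factor binding protein gene, with 28.0 against 40.7 CPM (log2 -0.54 ± 0.09 SE, edgeR adjusted p = 3.26e-05), and of Map1b, a microtubule-associated protein gene, with 7.26 against 11.6 CPM (-0.68 ± 0.12, edgeR adjusted p = 0.000104). In the control pair these differed by 0.13 and 0.29, and the difference between the pairs was called at both (edgeR adjusted p = 0.00643 and 0.00105). Calls of that kind fell from 334 to 34 when the promoter share entered the fit. The promoter of Sf3b6, a splicing factor subunit gene, was lower too, with 14.985 against 20.7 CPM (-0.46 ± 0.10, edgeR adjusted p = 0.00507). Higher was that of Supv3l1, a mitochondrial RNA helicase gene, with 27.6 against 19.9 CPM (0.49 ± 0.09, edgeR adjusted p = 0.000765), and the control pair differed there by 0.48. On chromosome 11 the promoters of the U3 small nucleolar RNA genes Rnu3b1 and Rnu3b4 were higher by 0.53 ± 0.09 and 0.50 ± 0.09. These are near-identical copies whose reads can be shared.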
